A study of Mus musculus with 8 samples.

Results

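The genes described here are the nuclear receptors of estrogen (*Esr1*, *Esr2*), progesterone (*Pgr*), glucocorticoid (*Nr3c1*) and mineralocorticoid (*Nr3c2*), the membrane estrogen receptor *Gper1*, the estrogen receptor cofactor *Greb1*, and the receptors of prolactin (*Prlr*) and growth hormone (*Ghr*). They were chosen by gene symbol, and they are 9 of the 27179 genes counted. All 9 were among the 16658 genes tested. RNA-seq was performed on whole uteri at postnatal day 10 (PD10) from 4 control libraries (Ctrl) and 4 *Ezh2 Amhr2*-Cre cKO libraries (cKO). Both genotypes carried the *Ezh2* f/f allele, which Cre recombinase can delete, and the cKO mice also carried *Amhr2*-Cre. *Ezh2* encodes the methyltransferase of Polycomb repressive complex 2. *Amhr2* drives Cre in mesenchyme-derived cells of the female tract, so the epithelium, blood vessels and blood cells of a whole uterus contribute RNA from cells in which Cre is not expected. The labels do not state that each library came from a separate mouse, and the p-values measure the spread between these libraries.

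Estrogen, progesterone and the corticoid hormones pass through the cell membrane and bind receptors that act as transcription factors on the DNA. Prolactin and growth hormone instead bind class I cytokine receptors at the cell surface, which activate JAK2 and STAT5. In the uterus the estrogen receptor ESR1 induces *Pgr*, and progesterone acting through PGR prepares the endometrium for implantation. At PD10 the mouse uterus has not yet been exposed to estrous cycles, and its glands are forming.

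Of the 9 genes, *Prlr* was higher in cKO uteri and was the only one called, a call being a p-value, adjusted over the whole table, that lies under 0.05 by the quasi-likelihood test of edgeR. Across all 16658 genes tested, 2.62% were called higher and 2.71% lower, so 1 of 9 genes is to be read against 5.34% in either direction. None of the 9 was called lower by this test, by DESeq2 or by limma-voom. When cKO replicate 4 was left out, 1 (*Pgr*) was, in a fit that called 4.94% of all genes lower. At an unadjusted p-value under 0.05 there were 5 of the 9, with 3 higher (*Esr2*, *Prlr* and *Ghr*) and 2 lower (*Pgr* and *Nr3c1*), against 21.2% of all genes. *Esr2* had a fold change of the same size as *Prlr* from fewer counts and missed the threshold. *Pgr* was lower in 3 of the 4 cKO libraries and not in the fourth, while *Esr1*, *Nr3c2*, *Gper1* and *Greb1* overlapped between the genotypes with log2 fold changes between -0.19 and 0.13.

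**Figure D1:**
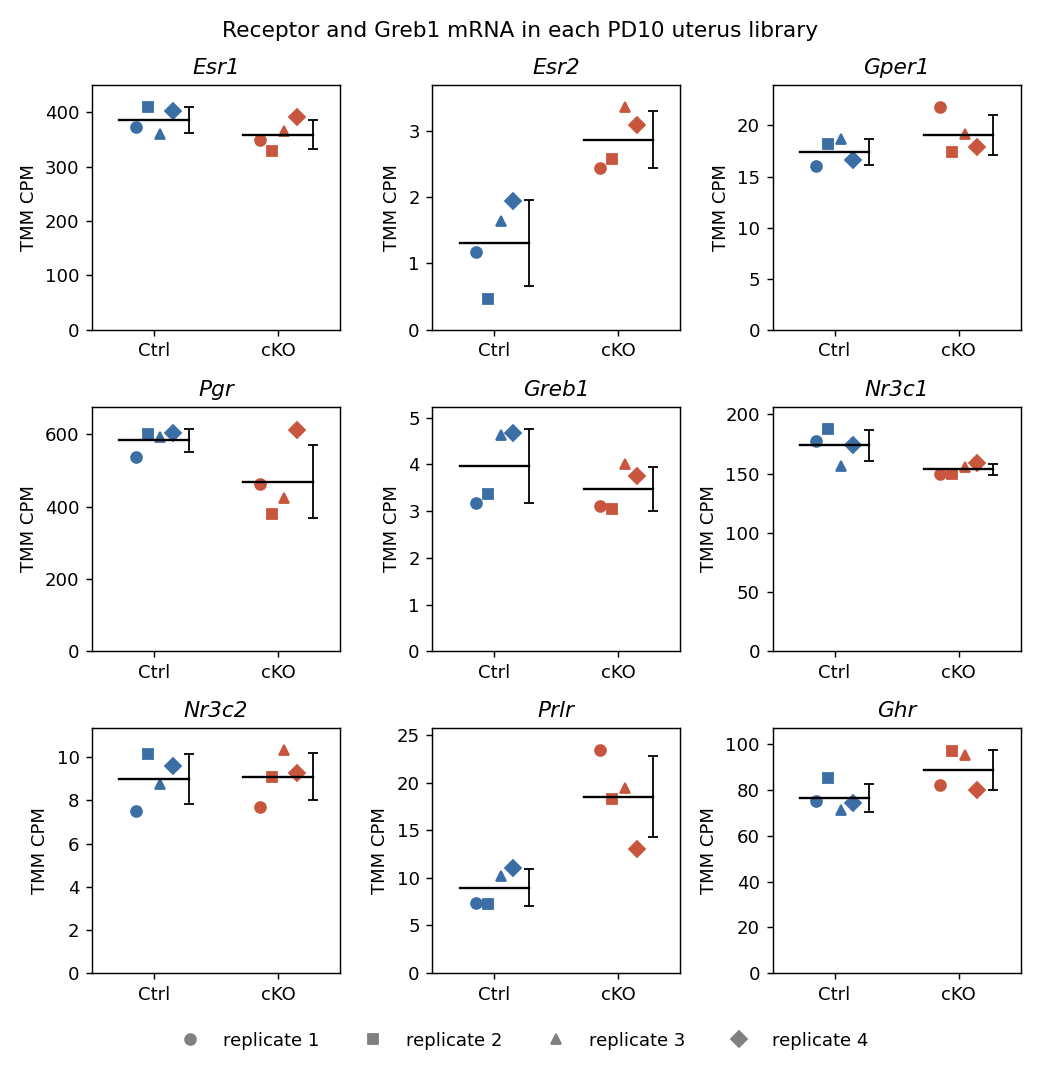
Expression of each gene in every library, as TMM CPM (counts scaled for library size and composition, vertical axes from 0). Points are libraries with the symbol of their replicate number, lines are means and bars are 1 SD (n = 4 per genotype). Only in *Esr2* and *Prlr* did every cKO library lie above every control library, as in 5.9% of all genes tested. *Pgr* of cKO replicate 4 stood at the level of the controls.

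Expression is given as TMM CPM, which is the count of a gene divided by the total of its library (CPM) after edgeR's TMM scaling between libraries. The libraries held between 25287141 and 36685807 counts. *Ezh2*, the targeted gene, was at 49.5, 40.5, 54.7 and 35.4 CPM in Ctrl replicates 1 to 4 and at 30.4, 38.0, 40.7 and 38.0 CPM in cKO replicates 1 to 4. Its log2 fold change was -0.29 (SE 0.13, adjusted p = 0.247 by edgeR) and the genotypes overlapped, so the level of this mRNA in whole uterus does not check the labels. The study itself reported recombination of the allele and lower *Ezh2* mRNA in cKO uteri. Only some exons were targeted there, while the counts used here are per gene.

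The cKO libraries were not alike. Of 10 fat markers, 8 were tested, and all 8 had a positive log2 fold change, 2 of them with an adjusted p-value under 0.05 (*Adrb3* and *Pparg*). The summed level of the 10 markers was between 13.1 and 16.4 CPM in control libraries, but it was 107.8, 233.6 and 112.9 CPM in cKO replicates 1, 2 and 3 and 15.9 CPM in cKO replicate 4. None of the 10 was at 0 in every library. Of 8 stroma markers, 1 was higher (*Col3a1*) and 1 lower (*Amhr2*, the gene of the Cre driver that only the cKO mice carried). Their sum was 9334 to 12342 CPM in the controls. It was 14457 to 14783 CPM in cKO replicates 1, 2 and 3, and cKO replicate 4 had 11325 CPM. In bulk tissue, more cells of a type and more RNA per cell cannot be told apart. Without cKO replicates 1 to 3, 0 genes of each pathway list below were called. In that fit, the cKO group has a single library, which is assumed to vary like the controls, and only 11 genes were higher and 24 lower among 16122 tested.

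Levels of different genes were compared per kilobase of exon, with exon lengths from GENCODE vM21. This is an approximation, since the annotation used for counting is not given in the sources used here. In control uteri the order was *Pgr* (68.2 ± 3.73 CPM per kb, SD, n = 4), *Esr1* (28.2 ± 1.70), *Nr3c1* (22.6 ± 1.69), *Ghr* (8.45 ± 0.664), *Gper1* (6.85 ± 0.497), *Nr3c2* (1.39 ± 0.179), *Prlr* (0.585 ± 0.128), *Greb1* (0.414 ± 0.0833) and *Esr2* (0.388 ± 0.192). Neighbours in this order did not overlap over the control libraries, except *Prlr* with *Greb1* and *Greb1* with *Esr2*. In cKO uteri *Prlr* was at 1.21 ± 0.279 CPM per kb and *Esr2* at 0.851 ± 0.127, which put *Greb1* (0.363 ± 0.0495) last. There *Prlr* overlapped both *Nr3c2* above it and *Esr2* below it.

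**Figure D2:**
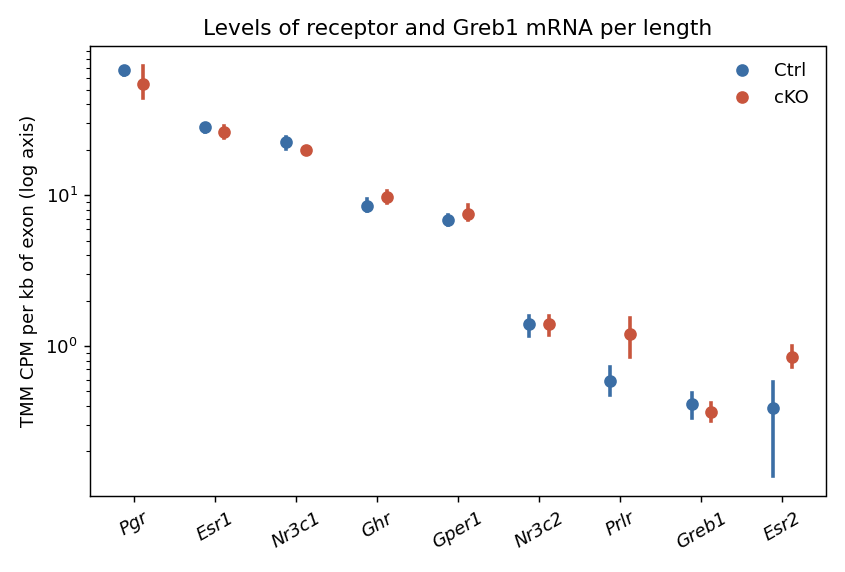
Mean level of each gene per kilobase of exon (TMM CPM per kb, log axis) in Ctrl and cKO uteri, with bars from the lowest to the highest of the 4 libraries. *Pgr*, *Esr1* and *Nr3c1* lie highest in both genotypes, and *Prlr* and *Esr2* are the genes whose bars separate.

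The promoters of *Prlr* and *Esr2* are shown because these were the 2 genes whose libraries separated. They are the 250 bases before the RefSeq start sites (GRCm38.p6). RefSeq gives 3 start windows for *Prlr* (Entrez 19116, chromosome 15, plus strand, gene from 10177238 to 10349190), of which the first opens the gene and the other two lie inside it. The windows for *Prlr* are chr15:10176988-10177237 and chr15:10223656-10223905, and that for *Esr2* (Entrez 13983, chromosome 12, minus strand, gene from 76120419 to 76177259) is chr12:76177260-76177509. Capitals mark matches to GGTCA, the single arm of the element bound by estrogen receptors, or to TTCNNNGAA, the spacing bound by STAT5, on either strand. The first *Prlr* window has none, and the third, not shown, has none either. The end of the second window is in 0 *Prlr* transcripts of the GENCODE annotation, against 1 for the first and 11 for the third.
Prlr start 1: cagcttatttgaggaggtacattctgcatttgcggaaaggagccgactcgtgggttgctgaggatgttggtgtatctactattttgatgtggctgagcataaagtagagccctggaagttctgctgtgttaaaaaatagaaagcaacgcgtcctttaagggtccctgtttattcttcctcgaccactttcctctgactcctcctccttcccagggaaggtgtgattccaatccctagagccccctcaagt
Prlr start 2: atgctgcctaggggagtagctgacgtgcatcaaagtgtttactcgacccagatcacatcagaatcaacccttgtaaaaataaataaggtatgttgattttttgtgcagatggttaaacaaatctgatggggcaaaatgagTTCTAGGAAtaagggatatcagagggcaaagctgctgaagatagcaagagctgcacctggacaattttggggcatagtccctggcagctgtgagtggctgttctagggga
Esr2 start 1: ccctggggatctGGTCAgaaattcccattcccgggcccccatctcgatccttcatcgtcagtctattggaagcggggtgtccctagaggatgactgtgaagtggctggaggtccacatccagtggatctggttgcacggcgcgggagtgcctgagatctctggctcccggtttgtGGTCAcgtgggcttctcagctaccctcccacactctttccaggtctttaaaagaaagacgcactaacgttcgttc

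Start windows of 300 bases (250 before and 50 after the start) were found for 8 of the 9 genes, 13 windows in all. The match in *Prlr* began 110 bases before the second start, and those in *Esr2* began 238 and 75 bases before its start. The single arm GGTCA was in 5 of the 13 windows (38.5%) and in 40.5% of the 32851 windows of all genes. The full estrogen response element (GGTCA, any 3 bases, TGACC), which contains the single arm on each strand, was in 0 of 13 and in 0.07% of all windows. TTCNNNGAA was in 2 of 13 (15.4%), those of *Prlr* and *Esr1*, against 8.3% of all windows. The element of PGR and the corticoid receptors (GNACA, any 3 bases, TGTNC) was in 0 of 13 and in 0.475% of all windows. CpG-rich windows (observed over expected CpG above 0.6 and GC above 50%) were 1 of 13 (7.69%), at *Ghr*, against 33.3% of all. These matches are a description of letters in the windows.

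*Esr1* (Entrez 13982, chromosome 10, from 4611989 to 5005633) encodes the main estrogen receptor of the uterus. It was at 372.4, 408.6, 360.1 and 402.1 CPM in Ctrl replicates 1 to 4 and at 349.5, 328.6, 364.7 and 391.0 CPM in cKO replicates 1 to 4. The genotypes overlapped, with cKO replicates 1 and 2 below every control. The log2 fold change was -0.11 (SE 0.067, 95% interval -0.25 to 0.04, adjusted p = 0.385 by edgeR). The sign turned without cKO replicates 1 to 3 (0.027) and when a fat score, the mean log2 CPM of the fat markers, was added as a covariate (0.019).

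*Esr2* encodes the second estrogen receptor, which is known mainly from the ovary. It was at 1.17, 0.464, 1.64 and 1.95 CPM in Ctrl replicates 1 to 4 and at 2.45, 2.58, 3.36 and 3.08 CPM in cKO replicates 1 to 4. Every cKO library was above every control, as in 5.9% of all genes tested, and the lowest value, in Ctrl replicate 2, rested on 12 counts. Over the libraries the gene had 12 to 71 counts in Ctrl and 63 to 109 in cKO. The log2 fold change was 1.11 (SE 0.31, 95% interval 0.43 to 1.79, adjusted p = 0.0611 by edgeR, exact permutation p = 0.0286, the smallest that 4 against 4 libraries allow). DESeq2 and edgeR's likelihood ratio test called 793 and 821 of all genes higher, against 437 in the quasi-likelihood test and 401 in limma-voom. The adjusted p-value of *Esr2* was 0.0102 in DESeq2, 0.00955 in the likelihood ratio test and 0.0514 in limma-voom. In the quasi-likelihood test it was 0.0388 without Ctrl replicate 2, where the log2 fold change was 0.85, and 0.0331 without Ctrl replicate 4. In the other fits without a single library it lay between 0.0730 (without cKO replicate 4) and 0.174 (without Ctrl replicate 1).

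In cKO replicate 4, whose summed fat markers lay within the control range although *Adrb3* did not, *Esr2* had its second highest value. The log2 fold change was 1.22 without cKO replicates 1 to 3 (adjusted p = 0.721) and 1.34 with the fat covariate (adjusted p = 0.349, both edgeR). The part of the fat markers in the change of *Esr2* was not tested otherwise. Of 10 ovary markers, 5 were tested and 0 passed the test. Their summed level was between 59.9 and 70.1 CPM in Ctrl and between 52.1 and 69.0 CPM in cKO libraries, most of it from *Foxl2*, which the uterine stroma also expresses. *Fshr*, the follicle-stimulating hormone receptor of granulosa cells, was at 0 in every library.

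*Gper1* (Entrez 76854, chromosome 5, from 139423150 to 139427800) encodes a membrane receptor coupled to G proteins that responds to estrogen. It was at 16.0, 18.2, 18.7 and 16.7 CPM in Ctrl and at 21.8, 17.4, 19.2 and 17.9 CPM in cKO replicates 1 to 4. The genotypes overlapped, with cKO replicates 1 and 3 above every control (log2 fold change 0.13, SE 0.091, adjusted p = 0.427 by edgeR). *Gper1* overlaps the gene *3110082I17Rik*, which had 604 to 789 counts per library. The kit marks strand, but the strand setting of the counting is not given in the sources used here, so reads shared by the 2 genes cannot be assigned here. *Esr2*, *Nr3c2*, *Prlr* and *Ghr* overlap noncoding genes or pseudogenes of RefSeq for which no counts were analysed here.

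*Pgr* (Entrez 18667, chromosome 9, from 8898900 to 8968611) had the highest level per kilobase of the 9 genes. It was at 535.9, 601.0, 591.9 and 603.7 CPM in Ctrl replicates 1 to 4 and at 461.8, 379.9, 422.9 and 611.4 CPM in cKO replicates 1 to 4. Replicates 1 to 3 of the cKO were below every control, and replicate 4 was above every control. This was a log2 fold change of -0.31 (SE 0.12, 95% interval -0.59 to -0.04, adjusted p = 0.176 by edgeR, exact permutation p = 0.143). Without cKO replicate 4 it was -0.47 (adjusted p = 0.00326 by edgeR), and this library decided the call. Over all genes, leaving it out raised the share called lower from 2.71% to 4.94%. Without cKO replicates 1 to 3 it was 0.076 (adjusted p = 0.986), and with the fat covariate it was 0.049 (adjusted p = 0.958, both edgeR).

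The 3 cKO libraries with low *Pgr* were those with high fat and stroma markers. The part of these in the level of *Pgr* was not tested beyond the values above. Relative to *Esr1* in the same library, the log2 ratio of *Pgr* was 0.60 ± 0.084 in Ctrl and 0.37 ± 0.21 in the cKO (SD, n = 4 each). The difference of -0.23 had an exact two-sided permutation p of 0.114, and without cKO replicate 4 it was -0.32 (exact permutation p = 0.0286).

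*Greb1* (Entrez 268527, chromosome 12, from 16670615 to 16801394) encodes a cofactor of ESR1 and is itself induced by estrogen. It was at 3.19, 3.37, 4.64 and 4.67 CPM in Ctrl and at 3.11, 3.05, 4.00 and 3.75 CPM in cKO replicates 1 to 4. Replicates 1 and 2 were the lower 2 libraries in both genotypes, and the genotypes overlapped (log2 fold change -0.19, SE 0.17, 95% interval -0.56 to 0.18, adjusted p = 0.560 by edgeR).

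*Nr3c1* encodes the glucocorticoid receptor. It was at 177.4, 187.7, 156.4 and 174.4 CPM in Ctrl and at 149.9, 149.3, 155.9 and 159.2 CPM in cKO replicates 1 to 4. Replicates 1 to 3 of the cKO were below every control, and the overlap came from cKO replicate 4 and Ctrl replicate 3. The change was -0.18 on the log2 scale (SE 0.062, 95% interval -0.31 to -0.05, adjusted p = 0.112 by edgeR, exact permutation p = 0.0571), and over the alternatives it was between -0.23 and -0.12 with adjusted p-values from 0.0527 to 0.963.

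*Nr3c2* (Entrez 110784, chromosome 8, from 76898083 to 77245012) encodes the mineralocorticoid receptor. It was at 7.51, 10.2, 8.74 and 9.58 CPM in Ctrl and at 7.69, 9.10, 10.3 and 9.28 CPM in cKO replicates 1 to 4, with the ranges almost identical. The log2 fold change was 0.02 (SE 0.12, 95% interval -0.25 to 0.29, adjusted p = 0.951 by edgeR). Its sign was negative without Ctrl replicate 1 (-0.060) or without cKO replicate 3 (-0.051).

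*Prlr* encodes the receptor of prolactin and the placental lactogens, which is best known for its part in lactation and in the corpus luteum of the ovary. It was at 7.32, 7.27, 10.2 and 11.1 CPM in Ctrl replicates 1 to 4 and at 23.4, 18.3, 19.5 and 13.0 CPM in cKO replicates 1 to 4. Every cKO library was above every control, and cKO replicate 4 was nearest to them. On the log2 scale *Prlr* rose by 1.04 (SE 0.19, 95% interval 0.62 to 1.46, adjusted p = 0.0102 by edgeR, exact permutation p = 0.0286). This is 2.06-fold (95% interval 1.54 to 2.74), just past the 2-fold threshold of the study for differentially expressed (DE) genes, which 0.666% of all genes tested passed upwards and 1.3% in either direction. By p-value *Prlr* was at position 310 of the genes tested.

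The rise in *Prlr* passed the test in each of the 8 fits without a single library, with log2 fold changes from 0.91 to 1.17. Its size was under 2-fold without Ctrl replicate 1 or 2 (0.95 each) or cKO replicate 1 (0.91). With the fat covariate the log2 fold change was 0.63 (adjusted p = 0.478), and without cKO replicates 1 to 3 it was 0.54 (adjusted p = 0.728, both edgeR). In cKO replicate 4, whose summed fat markers lay within the control range, *Prlr* was above the highest control, at 13.0 against 11.1 CPM.

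**Figure D3:**
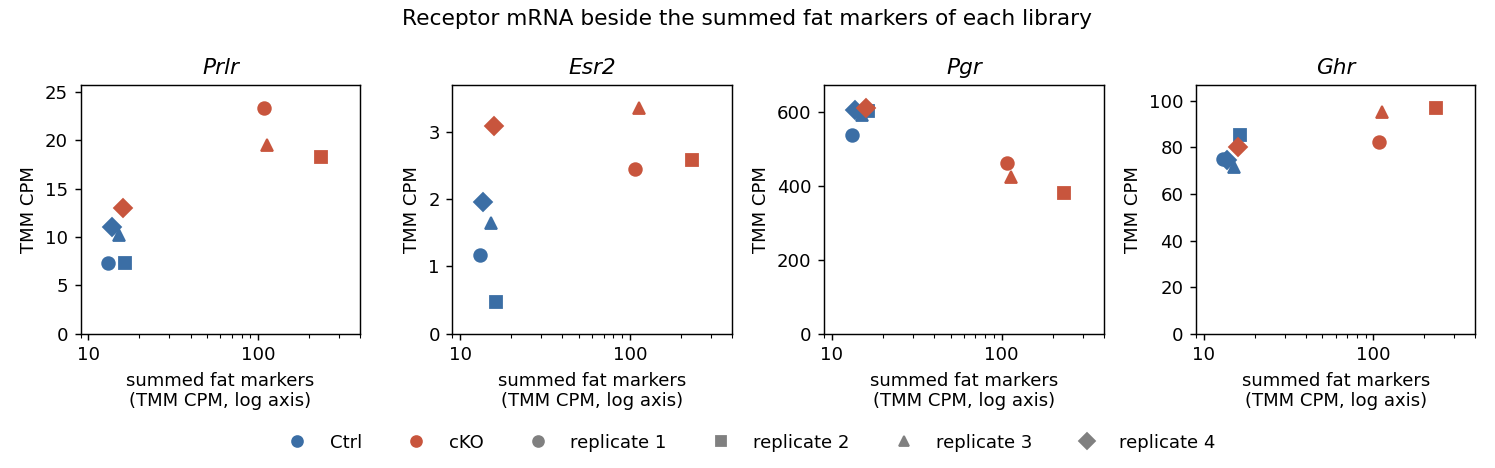
TMM CPM of *Prlr*, *Esr2*, *Pgr* and *Ghr* (vertical axes from 0) against the summed TMM CPM of the 10 fat markers (log axis), with 1 point per library. The cKO replicates 1 to 3 lie to the right at 107.8 to 233.6 CPM of fat markers, with *Pgr* below and *Prlr* above the controls, while *Esr2* of cKO replicate 4 is high at 15.9 CPM of fat markers.

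*Ghr* (Entrez 14600, chromosome 15, from 3317755 to 3583352), the receptor of growth hormone and the relative of *Prlr* among these genes, was at 75.1, 85.2, 71.4 and 74.5 CPM in Ctrl replicates 1 to 4. In the cKO it was at 82.4, 97.1, 95.2 and 80.0 CPM. Only cKO replicates 2 and 3 were above every control. The change was 0.21 on the log2 scale (SE 0.077, 95% interval 0.05 to 0.38, adjusted p = 0.133 by edgeR), and it was 0.073 without cKO replicates 1 to 3 and 0.045 with the fat covariate.

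*Prlr* changed more than *Ghr*. Within a library, the log2 ratio of *Prlr* to *Ghr* counts was -3.34, -3.53, -2.79 and -2.74 in Ctrl replicates 1 to 4 and -1.81, -2.40, -2.28 and -2.61 in cKO replicates 1 to 4. The ratio was higher in every cKO library than in every control, and the difference was 0.82 (exact two-sided permutation p = 0.0286). It went from 0.67 without cKO replicate 1 (exact permutation p = 0.0857) to 0.94 without Ctrl replicate 4.

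**Figure D4:**
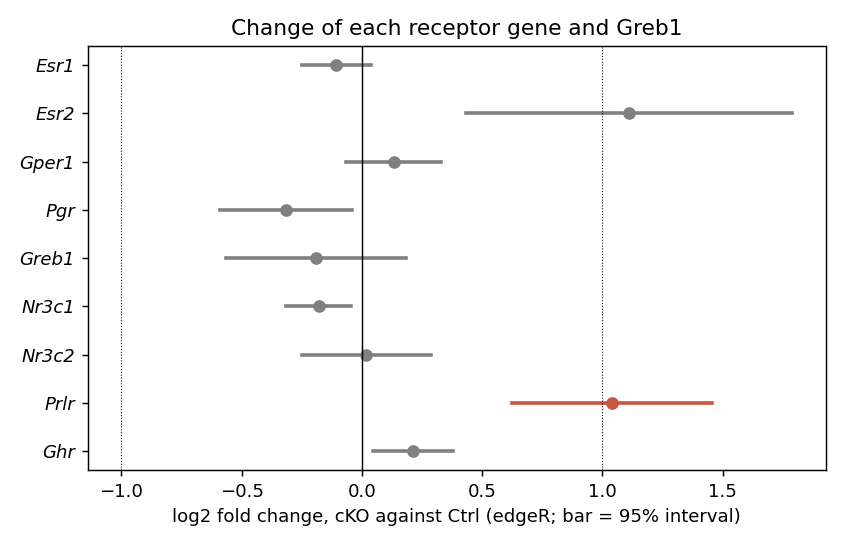
Log2 fold change of each gene, cKO against Ctrl, with its 95% interval from edgeR (n = 4 libraries per genotype); dotted lines mark 2-fold. *Prlr*, in red, is the only gene with an adjusted p-value under 0.05, and the interval of *Esr2* is the widest.

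**Figure D5:**
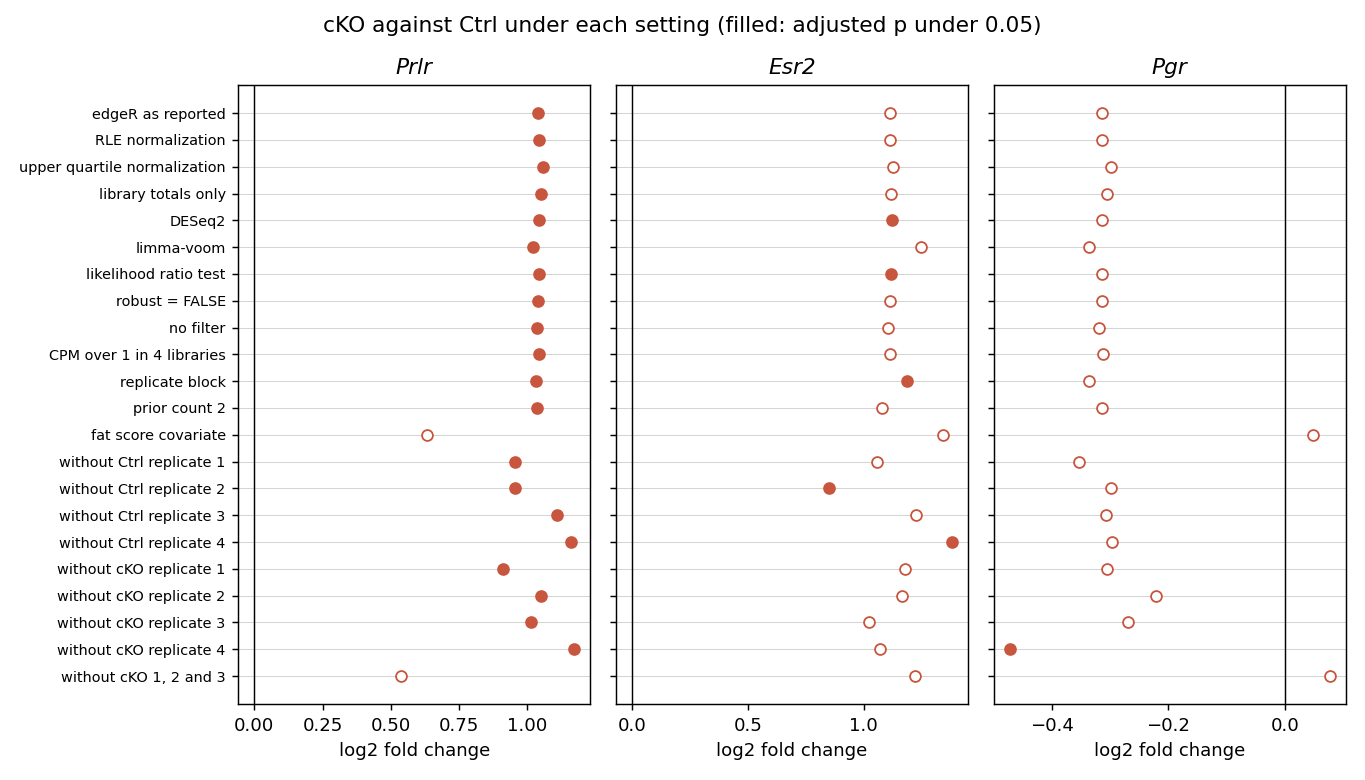
Log2 fold changes of *Prlr*, *Esr2* and *Pgr* in edgeR as reported and under each alternative, filled where the adjusted p-value was under 0.05. *Prlr* falls to 0.63 and 0.54, unfilled, in the fits with the fat covariate and without cKO replicates 1 to 3, *Esr2* is filled under 5 alternatives, and *Pgr* is filled only without cKO replicate 4.

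The ligands of PRLR and GHR were nearly absent from the RNA. Of *Prl*, *Gh* and 5 placental prolactin genes, 0 passed the filter, and 4 of the 7, with *Prl* and *Gh* among them, were at 0 counts in every library, which allows up to 0.0824 to 0.117 CPM per library. Of 20 genes of prolactin and growth hormone signalling, 1 was higher and 0 were lower (5% against 5.34% of all genes in either direction), and the median of their log2 fold changes was 0.03 against 0.0004 over all genes tested. No gene of the list was called without Ctrl replicate 1. The higher gene was *Igf1*, the growth factor that growth hormone induces in liver and estrogen in uterus, at 299 ± 14.4 CPM in Ctrl (SD, n = 4) and 369 ± 20.6 CPM in the cKO (SD, n = 4, log2 fold change 0.31, SE 0.06, adjusted p = 0.0109 by edgeR). The kinase gene *Jak2* (log2 fold change -0.02), *Stat5a* (0.28), *Stat5b* (0.03) and the feedback inhibitor genes *Cish* (0.17) and *Socs2* (0.12) did not pass the test, with adjusted p-values in edgeR from 0.156 for *Stat5a* to 0.906 for *Jak2*.

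Of the class I cytokine receptors, the family of *Prlr* and *Ghr*, 18 of 19 genes were tested, with both of these among them. Of the 18, 2 were higher, *Prlr* among them, and 1 was lower, together 16.7% against 5.34% of all genes. With the fat covariate 0 were called, in a fit that called only 33 genes higher and 64 lower among all 16658. The number higher fell to 1 without Ctrl replicate 1 or 3 or cKO replicate 2 or 3 and with a filter of CPM over 1, and *Prlr* passed the test in each of these fits. The number lower was 2 without Ctrl replicate 3 or 4. The median of their log2 fold changes was 0.15. The lower gene was *Il2rb*, the shared beta chain of the interleukin 2 and 15 receptors on lymphocytes, which fell by 1.80 on the log2 scale (SE 0.24, adjusted p = 0.000911 by edgeR). The leptin receptor gene *Lepr* had a log2 fold change of -0.36 (adjusted p = 0.0619 by edgeR) with every cKO library below every control, and *Lifr* (0.14) and *Il6st* (-0.05) did not pass either.

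Of the 11 other steroid receptor and membrane progesterone receptor genes tested, 0 were called in edgeR's quasi-likelihood test, and 1 was called higher by DESeq2, which called 4.76% of all genes higher. The genotypes did not overlap in 4 of them, against 12.3% of all genes, chosen for description after their values were seen. *Pgrmc1* and *Pgrmc2*, membrane proteins associated with progesterone binding, had log2 fold changes of -0.16 each (adjusted p = 0.147 and 0.126 by edgeR). *Paqr7* and *Paqr8*, membrane progesterone receptors, had log2 fold changes of 0.31 and 0.19 (adjusted p = 0.0726 and 0.154 by edgeR). The median over the 11 was 0.07.

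Of the 17 chaperones and coregulators that bind steroid receptors, 0 were called either way by edgeR's quasi-likelihood test, although 16 of 17 log2 fold changes were negative, with a median of -0.06. DESeq2 called 2 of them lower, against 4.28% of all genes, and the quasi-likelihood test called 4 lower without cKO replicate 4, against 4.94% of all genes in that fit. *Fkbp4*, which helps PGR to bind hormone, was at 348.4, 350.0, 371.0 and 360.3 CPM in Ctrl replicates 1 to 4 and at 304.4, 266.2, 262.7 and 355.1 CPM in cKO replicates 1 to 4 (log2 fold change -0.27, adjusted p = 0.0965 by edgeR). As in *Pgr*, cKO replicates 1 to 3 lay below every control and cKO replicate 4 did not. *Hspa8*, a heat shock protein of the receptor complex, had the same order (log2 fold change -0.31, adjusted p = 0.106 by edgeR). *Fkbp4* and *Hspa8* were chosen for description after their values were seen.

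Of 12 steroid-converting enzymes tested, 0 were higher and 1 was lower (8.33% against 5.34% of all genes in either direction). This was *Hsd11b1*, which regenerates active glucocorticoid from its inactive form, at 2.87, 2.67, 2.89 and 2.61 CPM in Ctrl and at 1.86, 1.61, 1.54 and 0.911 CPM in cKO replicates 1 to 4. Every cKO library was below every control, as in 6.43% of all genes tested, and cKO replicate 4 was the lowest (log2 fold change -0.90, SE 0.21, adjusted p = 0.0254 by edgeR). The call was lost without Ctrl replicate 1 or 3 or cKO replicate 2 or 3. The number of enzymes higher was 1 in edgeR's likelihood ratio test and 1 without Ctrl replicate 2. These fits called 821 and 530 of all genes higher.

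Of 15 glucocorticoid response genes, 1 was higher and 0 were lower (6.67% against 5.34% of all genes in either direction), and the median of their log2 fold changes was -0.02. *Sgk1*, a kinase gene induced by gluco- and mineralocorticoids, was at 27.5 ± 2.71 CPM in Ctrl (SD, n = 4) and 36.3 ± 4.91 CPM in the cKO (SD, n = 4, log2 fold change 0.40, SE 0.10, adjusted p = 0.0397 by edgeR), with no overlap between genotypes. In 7 of the 8 fits without a single library 0 genes of this list were called higher, and 2 were in the fit without cKO replicate 1. With the fat covariate 0 were, in a fit that called only 33 genes higher among all 16658. *Fkbp5* (-0.02) and *Tsc22d3* (-0.10), widely used readouts of the glucocorticoid receptor, had adjusted p-values of 0.954 and 0.550 in edgeR.

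Of 25 estrogen response genes tested, a list that holds *Pgr* and *Greb1*, 2 were higher and 1 was lower (12% against 5.34% of all genes in either direction), and the median of their log2 fold changes was 0.08. *Igf1* and *Gadd45g* (0.44, SE 0.11, adjusted p = 0.0386), a growth arrest gene, were higher, and *Muc1* (-0.42, SE 0.10, adjusted p = 0.0315, edgeR), a mucin of the epithelial surface, was lower. The genotypes did not overlap in any of these 3 genes, which were named for being called. Over all genes tested, 12.3% did not overlap in either direction. None of them was called without Ctrl replicate 1 or with the fat covariate. Over all genes, these 2 fits called 171 and 33 higher and 222 and 64 lower. In the list, 0 genes were lower in 6 of the 8 fits without a single library (all but those without Ctrl replicate 4 or cKO replicate 4) and with the replicate block, and 3 were lower without cKO replicate 4, where 4.94% of all genes were. The number higher was 1 without cKO replicate 1, 2 or 3. Of 8 epithelium markers 0 were called, and their summed level was 1245 to 1494 CPM in Ctrl and 1399 to 1721 CPM in cKO libraries.

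Of 17 progesterone response genes tested, 0 rose and 5 fell, 29.4% against 2.71% of all genes. The list was chosen with earlier results of these data known, and the study had reported *Ihh* and *Cyp26a1* as lower. The share is therefore a description only. The 5 were *Ihh* (-3.58), the hedgehog ligand of the uterine epithelium, *Cyp26a1* (-2.23), a retinoic acid degrading enzyme, *Il13ra2* (-0.99), a decoy receptor of interleukin 13, and the homeobox genes *Hoxa10* (-0.62) and *Hoxa11* (-0.49) of uterine identity. Adjusted p-values ran from 0.000105 for *Ihh* to 0.0239 for *Il13ra2* in edgeR. *Hoxa10* was at 342, 321, 316 and 300.2 CPM in Ctrl and at 179, 213, 220.2 and 221 CPM in cKO replicates 1 to 4, and every cKO library was below every control. *Ihh* was at 0.736 CPM in cKO replicate 4, below every control but above the other cKO libraries (0.194 to 0.308 CPM). *Il13ra2* was at 3.01 CPM in cKO replicate 4, above the lowest control (2.94 CPM), so that its genotypes overlapped. *Bmp2*, *Hand2* and *Nr2f2*, other genes of the list, did not pass the test, and the median log2 fold change over the 17 was -0.14. Between 4 and 5 were lower in each fit without a single library (1 was higher without cKO replicate 4, as were 5.78% of all genes). With the fat covariate 1 was lower, in a fit that called only 64 genes lower among all 16658.

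*Prlr*, *Esr1* and *Pgr* were compared with all other genes over the 8 libraries by Pearson's r of log2(CPM + 0.1), as a description without a test among the 14297 genes averaging 1 CPM or more. The libraries share depth, genotype and tissue make-up across genes, so a high value does not set a pair of genes apart. Most like *Prlr* were *Susd5* (0.993), *Astn1* (0.988), *Wdr62* (0.987), *Sox6* (0.985) and *Micall2* (0.984). Most like *Esr1* were *Wnk1* (0.994), *Wdfy3* (0.977), *Ash1l* (0.965), *Kat6a* (0.963) and *Ankrd17* (0.962). Most like *Pgr* were *D10Wsu102e* (0.979), *Haus8* (0.968), *Gucd1* (0.966), *Rab21* (0.963) and *Ctdspl* (0.963).

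The remaining marker lists describe what the whole uterus held. Of 8 smooth muscle, 6 endothelium, 6 macrophage and 4 oviduct markers tested, 0 were called, and all 4 liver markers were below the filter. Of 6 gland markers, *Prss28*, *Prss29* and *Spink1* were at 0 in every library, *Foxa2* (log2 fold change -2.91) and *Cxcl15* (-3.83) were lower and *Sox17* (0.35) was higher in cKO uteri (edgeR, adjusted p-values of 0.000241 for *Foxa2*, 0.000385 for *Cxcl15* and 0.0211 for *Sox17*). These gland markers differed in cKO replicate 4 as in the other cKO libraries, which was not so for *Pgr*.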

How the data were processed

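Total RNA of whole uteri was sequenced as stranded mRNA libraries. Per the labels and the study's methods, the authors used Trimmomatic for trimming, FastQC for quality, HISAT2 for alignment to GRCm38 and featureCounts for counting per Entrez gene. The versions, annotation, strand setting and handling of multi-mapping reads are not given in the sources used here. The authors deposited unnormalized counts per library, log2 normalized CPM, and their own edgeR comparison, whose fold changes and p-values were not used. The deposited log2 CPM of 16658 genes differed from those computed here by at most 5.0e-14.

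Starting from the counts, genes that 4 or more libraries held above 0.2 CPM were scaled by TMM and fitted with edgeR 4.0.16 in R 4.3.3 (glmQLFit with robust = TRUE, glmQLFTest, prior count 0.125). P-values were adjusted by Benjamini and Hochberg over 16658 genes. SE is the size of the log2 fold change divided by the square root of F. Single ratios were tested over the 70 arrangements of the libraries on log2(CPM + 0.1), with a smallest p of 0.0286. On simulated counts of the cKO against Ctrl comparison with 16658 genes, 198 of 200 genes changed 3-fold were recovered with 13 false calls, and 0 calls were made where no gene was changed.

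The genes and lists were chosen with earlier results of these data known. Genes named are the receptors and *Greb1*, *Ezh2*, the reported list genes with an adjusted p-value under 0.05, the 5 genes most like *Prlr*, *Esr1* and *Pgr*, and others given as examples after their values were seen. Some list genes, 1 of them with an adjusted p-value under 0.05, are not reported here. Symbols were matched for 25440 of 27179 genes. Start windows and coordinates came from RefSeq (GRCm38.p6). Totals of 25287141 to 36685807 counts put 3 counts, the upper limit for a gene seen 0 times, at 0.0824 to 0.117 CPM, for counting error only. No 2 libraries agreed within sampling noise (chi-square per gene from 7.8 to 31.8 over 28 pairs). Alternatives were other normalizations, filters, prior counts and dispersions, DESeq2 1.42.0, limma-voom (limma 3.58.1), the likelihood ratio test, glmTreat, a replicate block, each library left out, and a fat score as a covariate. Leaving out cKO replicates 1 to 3 was chosen after seeing the data. The labels give no batch.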

Additional observations from a re-analysis of the deposited data

How the results depend on the processing

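The direction of *Prlr*, *Esr2*, *Nr3c1*, *Greb1*, *Gper1* and *Ghr* was kept under all 21 alternatives run, and *Prlr* passed the test under 19 of them. The number of the 9 genes called higher was 1. It was 2, with *Esr2* added, under DESeq2, edgeR's likelihood ratio test and the replicate block, 0 with the fat score as a covariate, 0 without cKO replicates 1 to 3 (chosen after seeing the data), and between 1 and 2 when single libraries were left out. DESeq2, the likelihood ratio test and the block called 793, 821 and 669 of all genes higher, against 437 in the fit reported. *Esr2* was also called without Ctrl replicate 2 and without Ctrl replicate 4, where 530 and 303 of all genes were higher. The number of the 9 genes called lower was 0. It went to 1 (*Pgr*) when cKO replicate 4 was left out, where 4.94% of all genes were called lower. Of all genes, 217 were called and past 2-fold in the fit reported. With DESeq2, the likelihood ratio test and the block, 265, 356 and 253 were. Of the 9 genes, the number past 2-fold was 1. It was 2 with DESeq2, the likelihood ratio test and the block, 0 with glmTreat, with the fat score and without cKO replicates 1 to 3, and between 0 and 2 without single libraries. The signs that turned, none of them in a called gene, were *Esr1* (0.019) and *Pgr* (0.049) with the fat score, *Esr1* (0.027) and *Pgr* (0.076) without cKO replicates 1 to 3, and *Nr3c2*, which lay between -0.060 and 0.090 without single libraries. The ratio of *Prlr* to *Ghr* was between 0.67 and 0.94 without single libraries, with an exact permutation p over 0.05 without Ctrl replicate 1 or 2 or cKO replicate 1 or 3. The ratio of *Pgr* to *Esr1* was between -0.32 and -0.18. The cause of these shifts was not tested. Fits without a library kept the rule of 4 libraries, so fewer genes were tested.

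Over all genes, 437 were higher and 452 lower. These numbers were 793 and 713 with DESeq2, 821 and 691 with the likelihood ratio test, 669 and 571 with the block, 6 and 16 with glmTreat, 33 and 64 with the fat score, which is itself related to genotype, and 11 and 24 without cKO replicates 1 to 3. Without cKO replicate 4 they were 956 and 817, and without Ctrl replicate 1 they were 171 and 222. Estrogen response genes called higher numbered 2, and 6 with DESeq2 or the likelihood ratio test. Receptor chaperones called lower numbered 0, and 3 with the block. Same-numbered libraries did not deviate together (r of 0.0236, 0.113, -0.0035 and 0.194 for numbers 1 to 4, and 1 of 4 correlated best with its own number), so the numbers are not taken as pairs, and the replicate block put the adjusted p-value of *Prlr* at 0.0463 and that of *Esr2* at 0.0124. Depth limits *Esr2* most, with 12 to 109 counts per library.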

Other observations

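*Amhr2*, the gene whose promoter drives Cre, was at 6.78, 6.81, 5.60 and 5.41 CPM in Ctrl and at 3.18, 4.28, 4.16 and 3.15 CPM in cKO replicates 1 to 4. Every cKO library was below every control, and cKO replicate 4, which stood apart in *Pgr* and in the summed fat markers, was the lowest (log2 fold change -0.73, SE 0.15, adjusted p = 0.0148 by edgeR). Only the cKO mice carried *Amhr2*-Cre, so the presence of the driver and the deletion of *Ezh2* cannot be told apart in this level. *Col3a1*, the other stroma marker called, was higher (log2 fold change 0.36, adjusted p = 0.0454 by edgeR), and its genotypes overlapped.

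Among the fat markers, *Adrb3*, a beta adrenergic receptor of adipocytes, was at 0.915, 1.12, 1.18 and 1.02 CPM in Ctrl and at 2.80, 3.35, 2.43 and 2.10 CPM in cKO replicates 1 to 4. It was above every control in cKO replicate 4 too, as *Prlr* was, whereas *Pparg* in that library (1.44 CPM) lay within the control range of 0.678 to 1.65 CPM. *Adrb3* had an adjusted p-value of 0.00204 and *Pparg* of 0.0418 in edgeR.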
